A study of Mus musculus with 24 samples.

Results

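The Kupffer cell identity genes were a set of 10 named genes, Clec4f, Timd4, Vsig4, Marco, Cd5l, Cd163, Folr2, Adgre1, C6 and Id3, taken by symbol from the 56205 gene rows of a count table of mouse liver RNA. All 10 were found, each as a single row, and all 10 were among the 14109 genes with enough counts to be tested. Libraries were made from poly(A) RNA of whole liver of C57BL/6J mice after 20 weeks on either a diet deficient in methionine and choline (MCD, 12 mice) or a control diet (12 mice). An MCD diet withholds nutrients that hepatocytes need to export fat and is used to model steatohepatitis with fibrosis. The labels name only the missing methionine and choline, but the methods of the study also describe this diet as rich in fat and its results speak of a high-fat diet that lacks choline, so effects of the missing nutrients and of dietary fat cannot be told apart here. The labels name no transgene or drug for either group, and the age of the animals at the start is not given in the sources used here. The series design gives 6 animals per sex in each diet, but no label gives the sex, litter or sequencing batch of a single library, and nothing states whether libraries were pooled. The p-values therefore measure the spread between these libraries. Total counts ran from 16793207 to 24915175 in control and from 16388650 to 24577848 in MCD.

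Kupffer cells are the resident macrophages of the liver. They sit in the sinusoids, the capillaries of the liver, where they take bacteria, dying cells, haemoglobin and modified lipoproteins out of the blood. Their identity is known to depend on signals from neighbouring endothelial and stellate cells, and in injured liver the niche can also be filled by macrophages that descend from blood monocytes, which acquire some of the identity genes early and others, Timd4 in particular, late or not at all. In whole liver, fewer cells of a type and less RNA per cell cannot be told apart.

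Diet did not move the 10 genes together. Cd163 and Timd4 fell almost to the detection limit in MCD livers, Marco, Clec4f and Vsig4 fell by 1.61 to 2.30-fold, Cd5l, C6 and Folr2 did not pass the threshold, and Adgre1 and Id3 rose. A gene was called where edgeR's quasi-likelihood test, run over all 14109 genes, gave a false discovery rate (FDR) no higher than 0.01 with a log2 fold change beyond 0.5 in either direction. By this rule 5 of the 10 genes were lower and 2 were higher, where the rule called 19.1% of all tested genes lower and 19.2% higher. With libraries scaled by total counts alone, the calls of Marco, Clec4f and Vsig4 were lost. That scaling gave 2 lower and 2 higher, beside 850 lower and 4537 higher among all genes. The median log2 fold change of the 10 genes was -0.60, and that of all genes was -0.10.

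The stretches of 250 bases before the RefSeq start are shown for the genes with the largest falls, Cd163 and Timd4, and for Vsig4 and Cd5l, which fell less or did not pass the threshold (RefSeq, GRCm38.p6, 5′ to 3′ on the strand of the gene). Capitals mark GAGGAA (the core letters bound by PU.1), TGCTGA (a MAF half-site), TGGGAA (RBPJ) or TATAAA on either strand. The windows are chr6:124304401-124304650 (+) for Cd163, chr11:46810549-46810798 (+) for Timd4, chrX:96293439-96293688 (-) for Vsig4 and chr3:87357631-87357880 (+) for Cd5l.
Cd163: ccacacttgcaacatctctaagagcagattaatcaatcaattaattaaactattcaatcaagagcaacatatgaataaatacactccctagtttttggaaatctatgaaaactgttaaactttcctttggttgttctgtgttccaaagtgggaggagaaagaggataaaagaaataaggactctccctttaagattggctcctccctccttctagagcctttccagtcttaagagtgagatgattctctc
Timd4: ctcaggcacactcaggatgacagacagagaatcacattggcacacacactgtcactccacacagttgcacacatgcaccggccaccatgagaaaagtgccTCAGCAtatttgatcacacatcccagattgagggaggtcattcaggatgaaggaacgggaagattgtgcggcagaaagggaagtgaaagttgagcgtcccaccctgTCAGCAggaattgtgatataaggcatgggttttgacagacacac
Vsig4: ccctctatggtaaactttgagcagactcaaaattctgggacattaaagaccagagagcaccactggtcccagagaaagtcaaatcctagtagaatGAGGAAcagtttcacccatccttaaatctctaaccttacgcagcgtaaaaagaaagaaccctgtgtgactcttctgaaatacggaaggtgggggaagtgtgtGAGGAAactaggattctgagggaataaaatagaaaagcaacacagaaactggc
Cd5l: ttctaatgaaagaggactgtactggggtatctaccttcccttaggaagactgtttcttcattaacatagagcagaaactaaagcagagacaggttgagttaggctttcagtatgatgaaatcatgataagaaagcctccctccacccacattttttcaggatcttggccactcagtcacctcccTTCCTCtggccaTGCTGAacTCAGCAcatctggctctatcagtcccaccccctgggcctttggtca
The Cd163 window held none of the marked motifs. Timd4 held 2 TGCTGA matches, Vsig4 held 2 GAGGAA matches, and Cd5l held 1 GAGGAA and 2 TGCTGA matches within the last 66 bases before its start. Of the 9 genes with a window in the table, 4 held GAGGAA, 4 TGCTGA, 2 TGGGAA and 0 TATAAA, against 23.3%, 16.1%, 21.6% and 12.4% of 32851 windows of the same length. An E-box (CANNTG), not capitalised, stood in 5 of the 9 and in 66.2% of all windows, and none of its matches in the printed windows overlapped a marked motif. These are letter matches in a short window and were not tested.

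Among the receptors for material taken up from blood, Cd163 (ENSMUSG00000008845, chr6:124304656-124330527, plus strand, 16 exon blocks in GRCm38) encodes the scavenger receptor for haemoglobin bound to haptoglobin. Its level in control libraries was 8.18 CPM (counts per 1000000, on library sizes scaled by trimmed mean of M values, TMM) at the lowest, 18.3 at the median and 34.6 at the highest. In MCD libraries the lowest was 0, the median 0.204 and the highest 1.01 CPM. Every MCD library lay below every control library. In reads, control libraries held 152 to 600 and MCD libraries 0 to 24, with 2 MCD libraries at 0 and 4 at 3 counts or fewer. The mean fell from 19.3 ± 8.58 CPM (SD, n = 12) to 0.266 ± 0.274 CPM (SD, n = 12), which is -6.14 ± 0.38 on the log2 scale (SE, 95% confidence interval -6.94 to -5.35, FDR = 1.33e-12). It was the change ranked 5 from the lowest among the 14109 genes. A count of 3 corresponds to between 0.109 and 0.157 CPM in the MCD libraries, so most MCD values stood only a little above what a count near 0 resolves, and this covers counting error only.

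Timd4 (ENSMUSG00000055546, chr11:46810800-46844332, plus strand, 9 exon blocks) encodes a receptor for phosphatidylserine on dying cells and is a marker of long-lived resident macrophages. Control libraries ran from 2.36 through a median of 5.13 to 8.81 CPM, and MCD libraries from 0.0467 through 0.263 to 0.590 CPM. The diets again did not overlap. Control libraries held 40 to 170 reads and MCD libraries 1 to 14, with 3 MCD libraries at 3 counts or fewer. Timd4 changed by -4.10 ± 0.30 on the log2 scale (SE, FDR = 1.52e-11), which ranked 14 from the lowest of all genes. Cd163 and Timd4 were the 2 of the 10 genes whose diets did not overlap downward, and 4.88% of all tested genes had every MCD library below every control library. None of the 10 genes had every MCD library above every control library, which held for 9.5% of tested genes.

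Marco (ENSMUSG00000026390, chr1:120474538-120505024, minus strand) encodes a class A scavenger receptor that binds bacteria and particles. Its control libraries spanned 2.37 to 30.3 CPM with a median of 8.22, the widest spread of the receptors in relation to its level. MCD libraries spanned 1.20 to 8.63 CPM with a median of 4.75. Only 2 of 12 MCD libraries lay below every control library, so the groups largely overlapped. Marco changed by -1.20 ± 0.33 on the log2 scale (SE, FDR = 0.0025). Among the scalings and other tools tried, the call was lost with libraries scaled by total counts alone, at -0.78 (FDR = 0.028), and with limma-voom, at -1.04 (FDR = 0.0109).

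Clec4f (ENSMUSG00000014542, chr6:83644542-83656187, minus strand, 7 exon blocks) encodes a galactose-binding C-type lectin that in mice is restricted to Kupffer cells. Its level was 68.0, 133 and 199 CPM at the lowest, the median and the highest of the control libraries, and 16.6, 58.6 and 116 CPM in MCD. In 6 of 12 MCD libraries it lay below every control library, and the other 6 lay within the control range. The mean fell from 130 ± 42.7 to 60.1 ± 31.6 CPM (SD, n = 12 each), a difference of -1.11 ± 0.27 on the log2 scale (SE, FDR = 0.000708). With total counts alone the change was -0.77 and its FDR of 0.0108 just missed the threshold.

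Vsig4 (ENSMUSG00000044206, chrX:96247203-96293438, minus strand) encodes a receptor for fragments of complement C3 through which Kupffer cells catch bacteria from the circulation. Control libraries ran from 15.3 through 35.4 to 63.1 CPM and MCD libraries from 14.6 through 19.7 to 32.9 CPM. Most MCD libraries lay inside the control range, and 3 lay below it. Its change was -0.68 ± 0.20 on the log2 scale (SE, FDR = 0.00414). Among the scalings, count filters and left-out libraries, the call was lost with upper-quartile factors (-0.54), with total counts alone (-0.36), with only genes of at least 10 counts in every sample (-0.61, FDR = 0.0107) and on leaving out any 1 of 9 libraries (control 3 and 5, MCD 2, 4, 6, 7, 8, 10 and 11), where it was -0.63 to -0.58 with FDRs of 0.01002 to 0.014. Read separately by the sex-linked score described further on, the change of Vsig4 was 0.02 at the median score below 0 and -1.18 at the median score above 0.

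Folr2 (ENSMUSG00000032725, chr7:101839988-101857194, minus strand) encodes folate receptor beta, a surface marker of resident macrophages in many tissues. Its exons share 975 bases with the antisense gene Gm10602 on the opposite strand, and since the counting is not stated to use strand, reads of the pair may be mixed. The level was 6.60 to 17.3 CPM in control (median 10.01) and 4.51 to 14.0 CPM in MCD (median 6.95). In 6 of 12 MCD libraries it lay below every control library. A change of -0.51 ± 0.20 on the log2 scale (SE, 95% confidence interval -0.92 to -0.10) had an FDR of 0.0255 and was not called.

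Adgre1 (ENSMUSG00000004730, chr17:57358691-57483527, plus strand) encodes F4/80, the surface protein most used to stain mouse macrophages, which macrophages derived from monocytes also carry. It ran from 12.7 through 21.1 to 33.3 CPM in control and from 27.4 through 33.8 to 39.4 CPM in MCD. In 8 of 12 MCD libraries it lay above every control library, and the spread in MCD (SD 3.44 CPM) was smaller than in control (SD 6.87 CPM). Adgre1 rose by 0.65 ± 0.13 on the log2 scale (SE, FDR = 0.000124).

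Of the secreted proteins, Cd5l (ENSMUSG00000015854, chr3:87357881-87371073, plus strand) encodes a circulating protein that macrophages release and that binds IgM. Its control libraries held 42.4 to 145 CPM (median 88.2) and its MCD libraries 46.0 to 143 CPM (median 89.5). The 2 ranges nearly coincided. The means were 90.4 ± 28.6 and 91.0 ± 28.6 CPM (SD, n = 12 each), a log2 difference of 0.01 ± 0.18 (SE, FDR = 0.967) whose 95% confidence interval of -0.36 to 0.38 leaves room for a small change either way.

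C6 (ENSMUSG00000022181, chr15:4727175-4814967, plus strand) encodes a component of the complement membrane attack complex. Kupffer cells express it, and hepatocytes are the main liver source of complement proteins in general, so its reads in whole liver may come from more than 1 cell type. It ran from 13.8 to 231 CPM in control and from 30.0 to 172 CPM in MCD. The control libraries fell into a low and a high set, described below with the sex-linked score. Over all libraries the diets differed by 0.06 ± 0.45 on the log2 scale (SE, FDR = 0.917), the least precise of the 10. The estimate was 0.48 with total counts alone and 0.60 with limma-voom (FDR = 0.345 and 0.291), and was not called in either. Read separately by that score, the change of C6 was -0.15 at the median score below 0, not called, and 1.26 at the median score above 0, called higher.

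Id3 (ENSMUSG00000007872, chr4:136143497-136145755, plus strand) encodes an inhibitor of basic helix-loop-helix transcription factors that is needed for Kupffer cell development and that endothelial and other cells also express. It ran from 39.5 through 50.3 to 90.6 CPM in control and from 82.5 through 99.2 to 142 CPM in MCD. In 9 of 12 MCD libraries it lay above every control library. Id3 rose by 0.86 ± 0.13 on the log2 scale (SE, FDR = 3.7e-06).

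**Figure D1:**
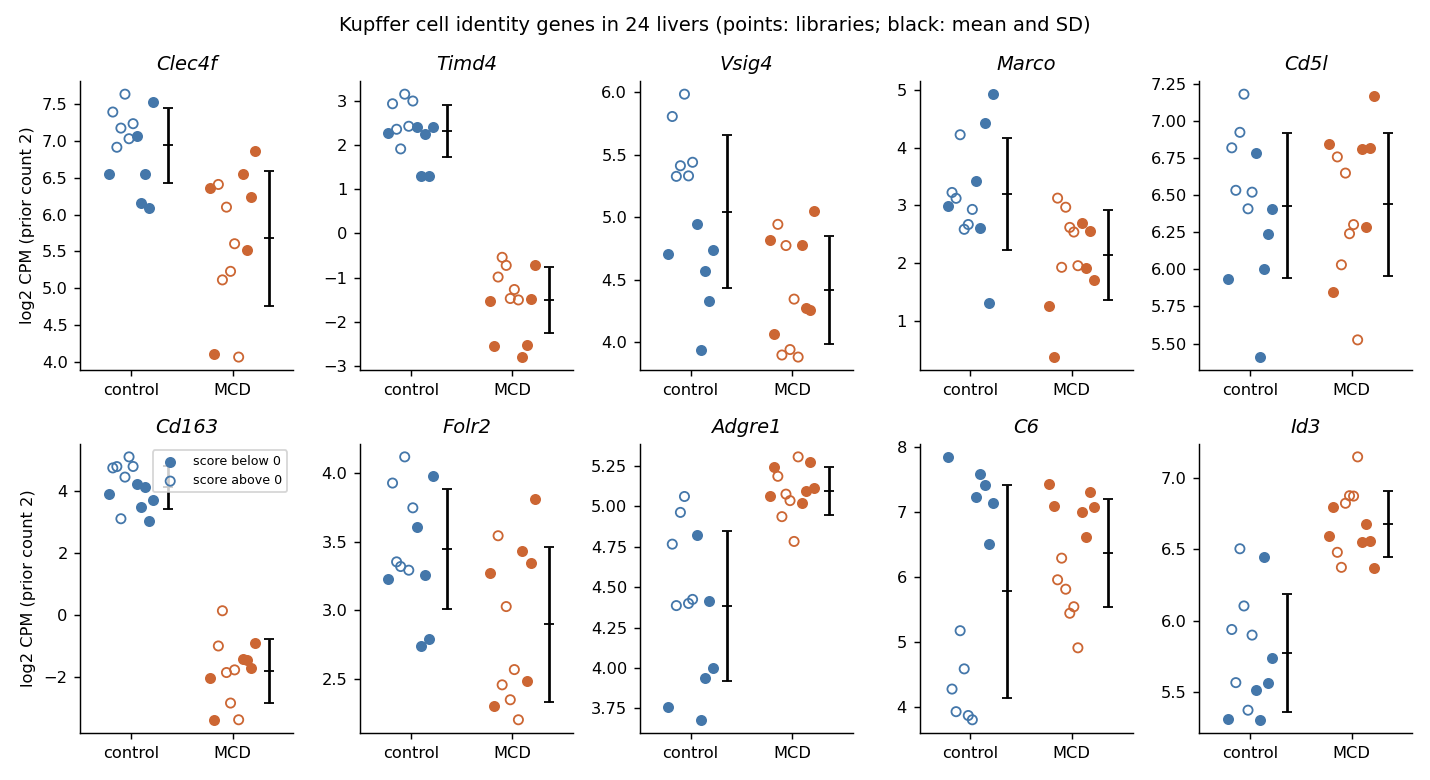
Each panel shows 1 gene, with the level of each library as log2 CPM (prior count 2) on the vertical axis and the 12 control (blue) and 12 MCD (orange) libraries side by side; filled points have a sex-linked score below 0, open points a score above 0, and black marks give mean and SD. Cd163 and Timd4 separate fully, Cd5l overlaps fully, Adgre1 and Id3 shift up, and the open and filled points of C6 stand apart in both diets.

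Per kilobase of exon, which allows genes to be set beside each other, the order of the mean levels changed between the diets. In control livers Clec4f was the highest at 52.7 ± 17.3 CPM per kb (SD, n = 12), followed by Cd5l at 44.4 ± 14.0, a difference smaller than either SD. Id3 (31.7), C6 (25.7) and Vsig4 (23.97) came next, and Folr2 (7.30), Adgre1 (6.72), Marco (5.83), Cd163 (3.54) and Timd4 (2.41) were lower. The step from Vsig4 to Folr2 was larger than either SD, and every other pair of neighbours lay closer than the SD of at least 1 of them. In MCD livers Id3 was the highest at 57.7 ± 9.64 CPM per kb and Cd5l second at 44.7 ± 14.0, a difference within the larger SD, while Clec4f stood at 24.3 ± 12.8, next to C6 at 26.8 ± 13.8. Cd163, at 0.0488, had passed below Timd4, at 0.137 CPM per kb, both close to the detection limit.

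The second comparison set the same genes against RNA that most macrophages share. In MCD livers all 10 genes of a general macrophage list rose, led by the lysozyme gene Lyz2 (log2 fold change 3.78, from 83.3 to 1141 CPM) and the lysosomal glycoprotein gene Cd68 (2.75, from 11.6 to 78.0 CPM). Csf1r, the receptor for the growth factors that keep macrophages alive, rose by 0.67, Mpeg1, encoding a pore-forming protein of macrophages, by 1.51 and Fcgr1, an IgG receptor gene, by 1.56. The summed level of Csf1r, Cd68, Fcgr1 and Mpeg1 was 128 to 244 CPM in control and 374 to 634 CPM in MCD, without overlap. All these genes passed the threshold.

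With the summed counts of these 4 genes in place of the library size, 9 of the 10 Kupffer cell genes were called lower and 0 higher. This scale lowers most genes: 83.2% of all tested genes were called lower and 5.19% higher, and the median log2 fold change of all genes was -1.49 against -1.92 for the 10. The 4 reference genes did not move alike on it. Cd68 was called higher (1.40) and Csf1r lower (-0.65), while Fcgr1 (0.21) and Mpeg1 (0.13) were not called. On this scale the log2 change was -7.49 ± 0.41 (SE) for Cd163, -5.42 ± 0.31 for Timd4, -2.55 ± 0.35 for Marco and -2.44 ± 0.26 for Clec4f. Cd5l, level per liver RNA, was -1.30 ± 0.16 per macrophage RNA (edgeR FDR = 4.9e-09), close to the median of all genes. Vsig4 (-1.98), Folr2 (-1.86) and C6 (-1.57) were also called lower. Adgre1, higher per liver RNA, was lower here at -0.66 ± 0.11 (edgeR FDR = 6.79e-07). Id3, at -0.49 ± 0.16 (edgeR FDR = 0.00581), did not reach the fold limit. With Csf1r alone as the reference, C6 (-1.14, FDR = 0.0382) and Adgre1 (-0.07, FDR = 0.648) were no longer called and Id3 changed sign to 0.08 (FDR = 0.706). The calls for C6 and Adgre1 and the direction for Id3 thus depended on which macrophage genes were used.

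The third scale compared the genes with Clec4f itself, the member most restricted to Kupffer cells, and was added after the data had been seen. Cd163 and Timd4 fell much further than Clec4f did, and Cd5l, C6, Adgre1 and Id3 rose in relation to it. For every 100 reads of Clec4f, control libraries held 5.93 to 26.4 reads of Cd163 (median 15.8) and MCD libraries 0 to 2.93 (median 0.289). For Timd4 the same ratio was 2.54 to 5.23 in control (median 4.10) and 0.0498 to 1.71 in MCD (median 0.461). Both ratios separated the diets fully. Of 14108 genes, 4 (0.0284%) had this ratio lower in every MCD than in every control library; beside Cd163 and Timd4 they were Scd1, a hepatocyte-rich lipid desaturase gene, and Chrna4, a nicotinic receptor subunit gene, the latter pair named after their values were seen.

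In the other direction, Cd5l stood at 45.6 to 111 reads per 100 Clec4f reads in control (median 67.4) and at 120 to 334 in MCD (median 156). Folr2 stood at 6.83 to 10.1 in control (median 8.91) and at 11.4 to 28.1 in MCD (median 12.7). For both genes every MCD library lay above every control library, which was so for 11.4% of all genes. The ratio of Folr2 in control was 8.82 ± 0.992 (SD, n = 12). Vsig4 (14.3 to 33.1 in control, 25.3 to 96.8 in MCD), Adgre1 (8.54 to 31.2 and 29.6 to 237) and Marco (2.96 to 22.8 and 2.72 to 22.8) overlapped.

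Fitted with Clec4f counts as the library size, 2 of the other 9 genes were lower, Cd163 at -4.95 ± 0.46 (log2, SE, edgeR FDR = 2.84e-22) and Timd4 at -2.76 ± 0.46 (edgeR FDR = 2.61e-08), where 0.475% of all genes were called lower. The fit called 4 higher, Id3 (2.50), Adgre1 (2.26), Cd5l (1.32) and C6 (1.16), where 76.5% of all genes were. Folr2 (0.78, edgeR FDR = 0.0366) and Vsig4 (0.73, edgeR FDR = 0.038) were not called. Marco, at 0.15 ± 0.37 with a 95% confidence interval of -0.62 to 0.93, was not called either, and its error was wide. The biological coefficient of variation was 59.8% on this scale against 26.8% per liver RNA, since the spread of Clec4f enters every gene. Even so, the FDR of Cd163 was smaller here than per liver RNA (edgeR FDR = 1.33e-12). The fit pools the spread over genes that all share the noise of Clec4f, so the FDRs on this scale overstate the evidence.

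**Figure D2:**
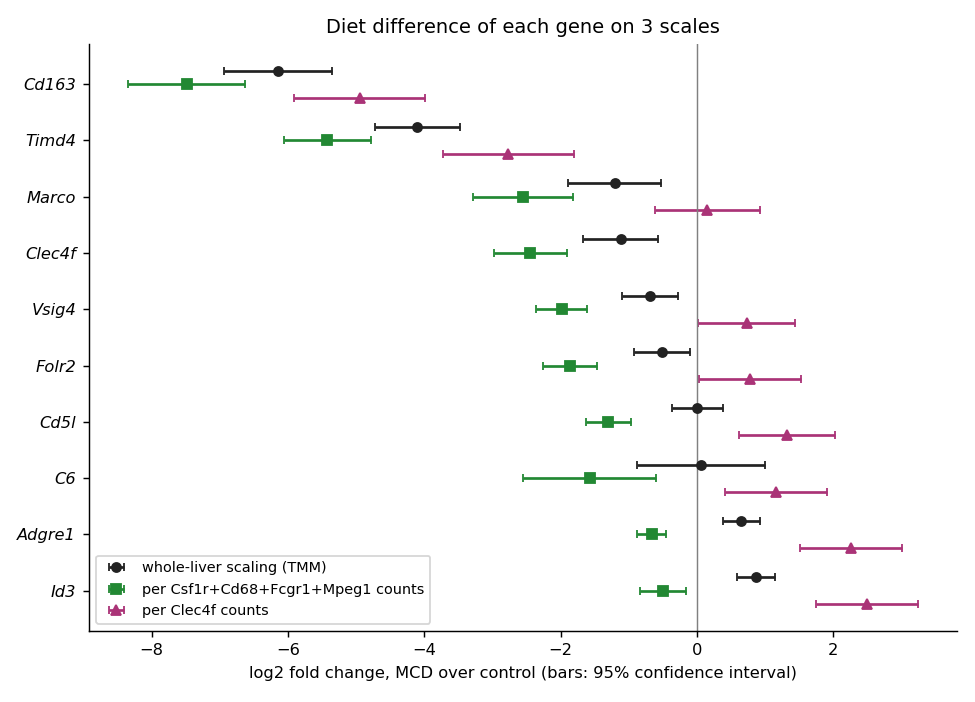
Log2 fold change of MCD over control (horizontal axis, bars for 95% confidence intervals) for each gene, scaled to the whole liver (black circles), to 4 general macrophage genes (green squares) and to Clec4f (purple triangles; none for Clec4f itself). Cd163 and Timd4 lie far to the left of 0 on all 3 scales, while Cd5l lies at 0.01 per liver RNA, at -1.30 per macrophage RNA and at 1.32 per Clec4f.

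Between animals on the same diet, some of the genes rose and fell with Clec4f. By Pearson r, Folr2 followed it most closely in control (r = 0.95, Spearman rho = 0.96, n = 12, permutation p = 1e-05 for both, the smallest that 100000 resamples can give) and Cd5l in MCD (r = 0.98, p = 1e-05; rho = 0.94, p = 2e-05, permutation). Within diets 18 relations were computed, and 8 had an adjusted permutation p under 0.05 for r, 4 of 9 in each diet. Of all other tested genes, 3.45% in control and 12.3% in MCD had an r at least as far from 0 as the weakest of these 8 (0.66), in libraries that share depth and scaling. In control these were Folr2, Timd4 (r = 0.83, rho = 0.78, adjusted p = 0.00318 and 0.011), Vsig4 (r = 0.82, rho = 0.82, adjusted p = 0.00318 and 0.00756) and Cd5l (r = 0.80, rho = 0.74, adjusted p = 0.0036 and 0.0186). In MCD they were Cd5l, Folr2 (r = 0.92, rho = 0.98, adjusted p = 0.00024 and 9e-05), Vsig4 (r = 0.86, rho = 0.92, adjusted p = 0.00171 and 0.00045) and, in the negative direction, Id3 (r = -0.66, rho = -0.64, adjusted p = 0.04 and 0.0674).

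Without the 2 libraries whose Clec4f lay farthest from the median, 5 of the 8 held: Folr2 (r = 0.89 in control and 0.97 in MCD), Cd5l (0.78 and 0.98) and Vsig4 in MCD (0.91). The relations of Timd4 (r = 0.58, adjusted p = 0.155) and Vsig4 (0.65, adjusted p = 0.125) in control and of Id3 in MCD (-0.41, adjusted p = 0.344) kept their sign but no longer passed without them, with 10 libraries left. Leaving out the extremes also narrows the range of Clec4f, which by itself tends to lower r. Within the 6 libraries on each side of a sex-linked score of 0 (described below), r for Folr2 was 0.99 and 0.92 in control and 0.93 and 0.89 in MCD, and for Cd5l 0.66 and 0.82 in control and 0.98 and 0.99 in MCD, for scores below and above 0. For Vsig4 it was 0.75 and 0.95 in control and 0.83 and 0.88 in MCD. Timd4 had r = 0.82 and 0.70 in control, and Id3 had -0.91 and -0.54 in MCD.

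The other relations did not pass on TMM-scaled levels. With total counts alone, Adgre1 (r = 0.70, rho = 0.68, adjusted permutation p = 0.0236 and 0.0407) passed in control, and C6, whose libraries fall into separate sets, passed for r. In MCD, where Timd4 counts were 1 to 14, its r was 0.23 (adjusted p = 0.478), and that of Cd163 was 0.60 (adjusted p = 0.0741). Without the 2 farthest libraries, over a narrower range of Clec4f, r for Cd163 came to 0.049 in control, from 0.47, and to 0.036 in MCD. Adgre1 had r = 0.60 in control (adjusted p = 0.0741) and -0.23 in MCD (adjusted p = 0.478), and the difference between the diets was not tested. Marco had r = 0.45 in control and 0.46 in MCD (adjusted p = 0.173 for both), and both came to about 0 without the 2 farthest libraries, at -0.024 and -0.0093. C6 fell into a low and a high set by the sex-linked score, so its relation is given within the sides, where r was 0.05 and 0.39 in control and 0.23 and 0.63 in MCD for scores below and above 0.

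**Figure D3:**
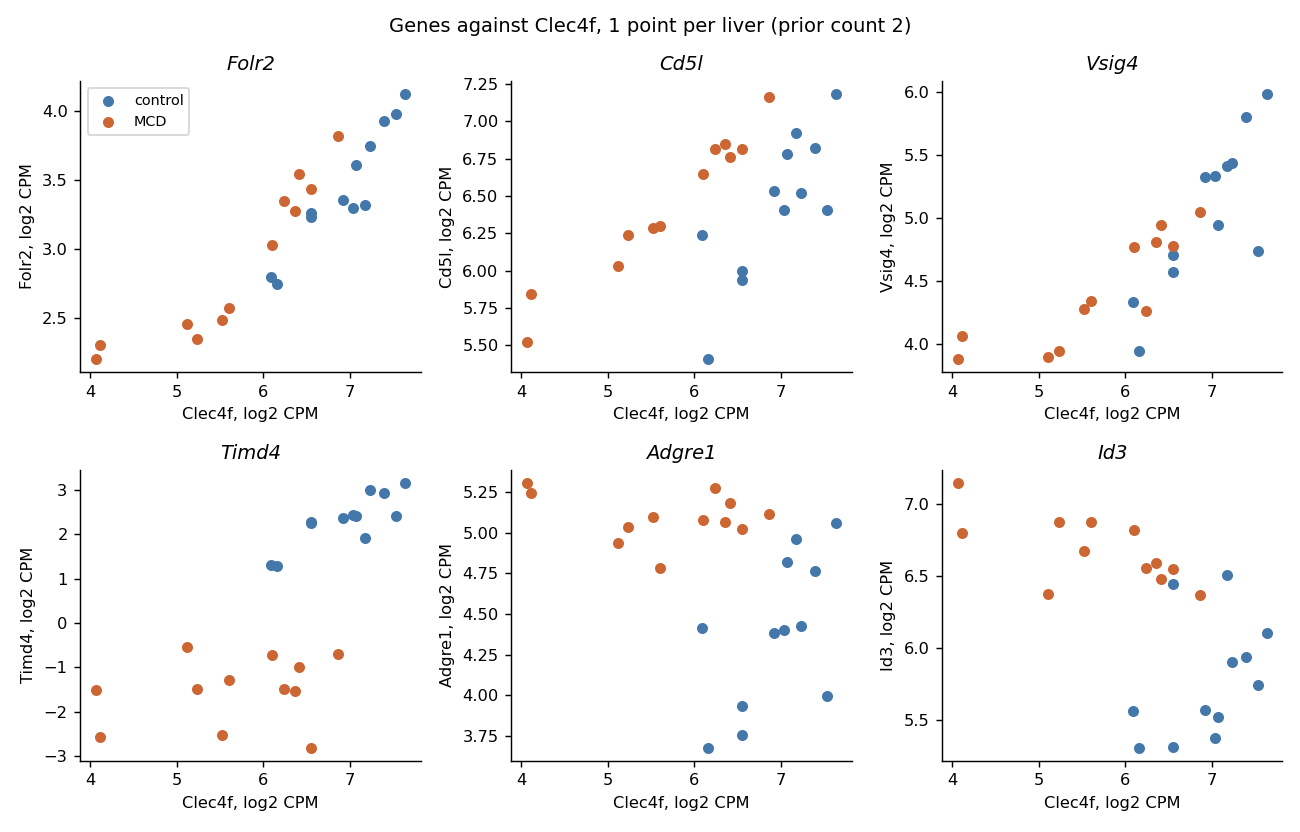
Each point is 1 liver, control in blue and MCD in orange, with Clec4f on the horizontal axis and another gene on the vertical axis, both as log2 CPM with a prior count of 2. Folr2, Cd5l and Vsig4 run upward within each diet, and MCD points of Cd5l and Folr2 lie above control points at the same Clec4f level; Timd4 forms 2 separate bands.

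Over all 24 libraries, with the mean of each diet removed, Folr2 was the gene with the highest r with Clec4f among 13098 genes of at least 1 CPM (r = 0.91). Cd5l ranked 3 (0.88) and Vsig4 ranked 5 (0.76). Cd163 ranked 54 (0.56), Marco 212 (0.42), Timd4 261 (0.41), Adgre1 1333, C6 7633 and Id3 9601. The 5 most similar genes outside the set were Fcna (r = 0.91), which encodes a ficolin of the lectin complement pathway, Clec1b (0.78), which encodes the podoplanin receptor CLEC-2, Kcna2 (0.75), a potassium channel gene, Fpr1 (0.74), a receptor gene for formylated bacterial peptides, and Cyp4b1 (0.72), a cytochrome P450 gene. The points share library depth and scaling, and these values are descriptions.

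Of 16 further Kupffer cell genes, 4 were lower and 5 higher, with a median log2 fold change of 0.05. Over all genes tested 19.1% were lower and 19.2% higher, so these counts are near the background. Kcna2 (-2.10 ± 0.28, from 5.31 to 1.24 CPM) and Fcna (-1.62 ± 0.20, from 41.5 to 13.5 CPM) fell most (log2, SE, edgeR FDR = 3.54e-07 and 1.46e-07). The complement C1q chain genes C1qb (1.68 ± 0.16, from 55.3 to 178 CPM) and C1qa (1.51 ± 0.16, from 73.2 to 208 CPM), which other macrophages also express, rose most. Clec1b, at -0.39 (edgeR FDR = 0.0404), was not called.

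Of 10 transcription regulators of Kupffer cells, 3 were higher and 0 lower, with a median of 0.01, and these counts too are near the 19.2% and 19.1% of all genes. Spi1, which encodes the macrophage lineage factor PU.1, rose by 1.78 ± 0.16 (from 13.5 to 46.6 CPM) and Id1, a relative of Id3, by 1.10 ± 0.18 (from 16.3 to 35.0 CPM). Nr1h3, which encodes LXR alpha, a factor that maintains Kupffer cell identity and is also expressed by hepatocytes, was at 125 ± 28.03 CPM in control and 103 ± 6.12 CPM in MCD (SD, n = 12 each; log2 fold change -0.27, edgeR FDR = 0.0157). Spic, which encodes a regulator of iron-recycling macrophages, was at 1.48 ± 0.531 and 1.36 ± 0.317 CPM (log2 fold change -0.13, edgeR FDR = 0.567). The latter pair did not pass and was chosen after their values were seen.

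Of 14 ligands and receptors of the Kupffer cell niche, 5 were lower and 7 higher, with a median of 0.34, beside 19.1% and 19.2% of all genes. The falls were led by Bmp10 (-1.35 ± 0.23, from 3.77 to 1.48 CPM), a ligand of the ALK1 receptor made by stellate cells, and Dll4 (-0.96 ± 0.17, from 7.57 to 3.89 CPM), a Notch ligand of endothelial cells. The rises were led by Tgfb1 (1.21 ± 0.13, from 17.7 to 40.9 CPM), which encodes the cytokine TGF beta 1, and Acvrl1 (1.21 ± 0.12, from 5.82 to 13.5 CPM), which encodes ALK1. With total counts alone, 2 of the 14 were lower, as were 850 of all 14109 genes.

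Markers of other cells moved with the same diet contrast, in which 19.1% of all tested genes were lower and 19.2% higher. Of the recruited monocyte list, 10 of 10 genes rose, led by S100a4 (4.01) and Ms4a7 (3.83), and the summed level was 10.3 to 44.2 CPM in control and 119 to 237 CPM in MCD. Of the lipid-associated macrophage list, 6 of 7 rose, led by Gpnmb (6.89) and Trem2 (4.59), and the summed level was 71.2 to 370 CPM in control and 1372 to 2675 CPM in MCD. Gpnmb was at 0 in at least 1 control library. Of 8 sinusoidal endothelium genes, 5 fell, led by Oit3 (-1.19) and Kdr (-1.12), with sums of 293 to 451 CPM in control and 246 to 312 CPM in MCD, and with total counts alone 2 were lower and 1 higher. Of 6 hepatocyte genes, 2 fell, Ttr (-0.85) and Alb (-0.62), and 0 did with total counts alone. Among smaller lists, 3 of 3 cholangiocyte genes rose, led by Epcam (3.67) and Krt19 (2.99), and 3 of 3 proliferation genes, led by Mki67 (1.63) and Birc5 (edgeR FDR = 4.12e-09). Of 5 mesenchymal genes 3 rose, led by Col1a1 (2.88) and Pdgfrb (1.69), and Lrat fell (-0.93). Of 5 lymphocyte genes 3 rose, led by Nkg7 (2.06) and Cd3e (1.91). Of 4 dendritic cell genes, Xcr1 (1.73) and Flt3 (1.64) rose, while Zbtb46 (-0.37) and Clec9a (-0.09) were not called. Both tested neutrophil genes, S100a8 (2.80) and S100a9 (2.34), rose. Of the peritoneal macrophage list, Gata6 alone had enough counts to be tested and rose (0.68), and 1 gene cannot mark that cell type in whole liver. The part of these cells in the levels of the 10 genes was not tested.

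**Figure D4:**
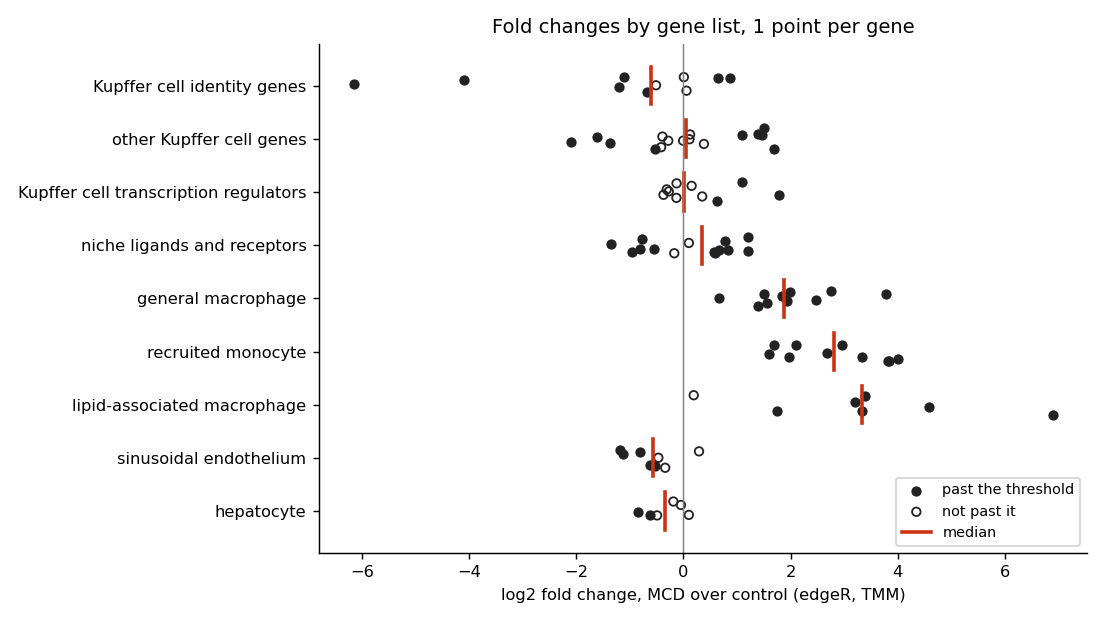
Each point is the log2 fold change (horizontal axis, MCD over control, edgeR with TMM) of 1 gene in the list named on the vertical axis; filled points passed the threshold, open points did not, and the red line is the median. The 10 Kupffer cell identity genes span -6.14 to 0.86, while all genes of the general macrophage and recruited monocyte lists lie to the right of 0.

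The 24 libraries separated by a sex-linked score, log2 CPM of Xist (transcribed from the inactive X chromosome) minus the mean log2 CPM of Uty, Kdm5d, Ddx3y and Eif2s3y, all on the Y chromosome. The score served as a number, without assigning a sex to any library. The score lay between -8.07 and -5.21 in 6 control and 6 MCD libraries and between 10.7 and 12.5 in the other 6 and 6. C6 was the 1 gene of the 10 with a slope on the score, at -0.12 ± 0.01 log2 units per unit of score with diet in the model (SE, edgeR FDR = 5.68e-08). At an FDR of 0.01, 3.48% of all genes had such a slope.

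C6 was at 90.8 to 231 CPM in the 6 control libraries with a score below 0 and at 13.8 to 36.0 CPM in the 6 above 0. In MCD the ranges were 98.3 to 172 CPM and 30.0 to 78.2 CPM. The ranges of low and high scores did not overlap in either diet, and the gap was smaller in MCD. The slope of C6 differed between the diets by 0.078 ± 0.018 (MCD minus control, SE, edgeR interaction FDR = 0.0244). Vsig4 was at 15.3 to 30.7 CPM below 0 and 40.0 to 63.1 CPM above 0 in control, and at 16.6 to 32.9 and 14.6 to 30.6 CPM in MCD. Its control libraries were thus higher at scores above 0 and its MCD libraries were not, with a slope difference of -0.066 ± 0.016 (edgeR interaction FDR = 0.0347). These were the 2 of the 10 genes with an interaction FDR of 0.05 or less, which 1.28% of all genes reached.

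From the same model, the diet effect was read at the median score below 0 and at the median score above 0. Cd163 (-5.95 and -6.26), Timd4 (-4.33 and -3.97) and Id3 (0.87 and 0.86) were called at both. Vsig4 was 0.02 ± 0.21 below 0 and -1.18 ± 0.20 above 0, and C6 was -0.15 ± 0.22 and 1.26 ± 0.22 (log2, SE). Clec4f was -0.54 ± 0.35 below 0, not called, and -1.66 ± 0.35 above 0, called, but the interaction of Clec4f did not pass (edgeR FDR = 0.311). Folr2 (-0.10 and -0.91) was likewise called only above 0, Marco (-1.80 and -0.69) and Adgre1 (0.97 and 0.39) only below 0, and Cd5l (0.52 and -0.44) at neither. The interaction did not pass for any of these 4 genes (edgeR FDR = 0.336, 0.46, 0.256 and 0.158). Counted at the score below 0, 3 of the 10 genes were lower and 2 higher (19.0% and 18.1% of all genes), and at the score above 0, 5 were lower and 2 higher (15.0% and 16.9%).

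**Figure D5:**
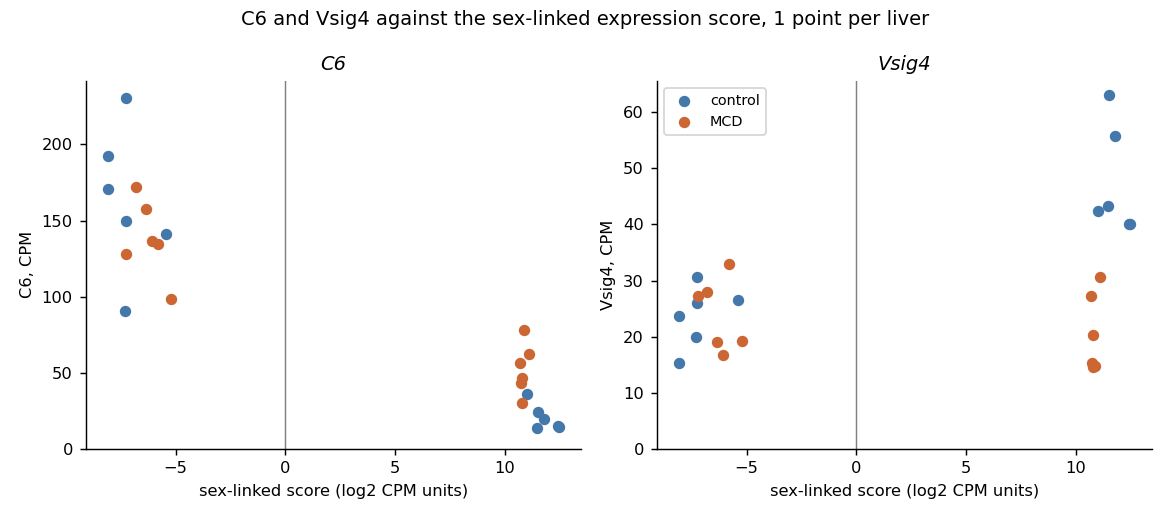
Level of C6 (left) and Vsig4 (right) in CPM against the sex-linked score, 1 point per liver, control in blue and MCD in orange; the grey line marks a score of 0. C6 is high at scores below 0 in both diets, whereas Vsig4 is high only in the 6 control livers with a score above 0 (40.0 to 63.1 CPM).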

How the data were processed

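Whole-liver poly(A) RNA of 24 mice was sequenced, with 12 on each diet grouped by the sample titles and treatment labels. The authors deposited 1 column of whole-number read counts for each library, by Ensembl gene and not normalized. The submitters' processing notes name bcl2fastq, STAR 2.7.3a and mm10, without roles. The study's supplement describes a stranded mRNA kit and quantification with PISCES, but against the human genome. The counting program, the annotation and any use of strand in counting the mouse libraries are not given in the sources used here. Of 56205 gene rows, 28652 were 0 in every library. Symbols, exon lengths and coordinates came from GENCODE M21 (GRCm38), and promoter windows from RefSeq (GRCm38.p6), matched by symbol for 9 of 10 genes. Rows without a symbol were kept under their identifier.

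Genes were kept with filterByExpr by diet (14109), libraries were scaled by TMM factors (0.643 to 0.973 in control, 1.07 to 1.26 in MCD), and MCD was compared with control by edgeR 4.0.16 (glmQLFit, glmQLFTest, R 4.3.3) with no covariate. The limits, an FDR of 0.01 and a log2 fold change of 0.5, are those the study applied to human liver. CPM are on TMM-scaled sizes, and a prior count of 2 was added for log2 CPM. SEs were derived from the F statistic and intervals at 95% from the SE. Intervals and the floor of 3 counts cover counting or library spread only. In the per-macrophage and per-Clec4f fits, the summed counts of the reference genes replaced the library size. Relations used two-sided permutation tests (100000 resamples, or all orders for 6 libraries; scipy 1.17.1, numpy 2.4.6, Python 3.11.15), adjusted by Benjamini-Hochberg over 18 relations. Figures were drawn with matplotlib 3.10.9.

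The members and gene lists were chosen with earlier results of these data known. The text names every member, the 2 largest rises and 2 largest falls past the threshold in each list, the 4 macrophage reference genes, and the 5 genes most like Clec4f; others are said to be chosen after their values were seen. Alternatives were other scalings, filters, limits, DESeq2 1.42.0, limma-voom (limma 3.58.1), a replicate block, the sex-linked score as covariate, other reference genes and leaving out each library. The slope on the sex-linked score, its interaction with diet and the diet effects read at a fixed score were added after the data were seen. So were the per-Clec4f scale and the relations by score side. On simulated counts for 14109 genes, the edgeR fit recovered 86 of 100 genes changed by 1 and 100 of 100 changed by 2 on the log2 scale, with 0 false calls, and scaled to reference genes 91 and 96 of 100, with 1 false call. The simulation changed few genes, equally many up and down, and left the reference genes unchanged. It therefore did not test either scaling under changes as broad as those between these diets.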

Additional observations from a re-analysis of the deposited data

Results flagged for a closer look

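Both results below came from the difference in slope on the sex-linked score between the diets, tested as an interaction over all genes in edgeR. The slope of C6 was less steep in MCD than in control, by 0.078 log2 units per unit of score (FDR = 0.0244). The slope of Vsig4 was lower in MCD than in control, with a difference of -0.066 (FDR = 0.0347).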

How the results depend on the processing

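Against 5 genes lower and 2 higher, total counts alone gave 2 lower, as did requiring at least 10 counts in every sample, where Cd163 and Timd4 were no longer tested and the call of Vsig4 was lost. The diet effect at the median score below 0 gave 3 lower, and a log2 limit of 1, which Vsig4, Adgre1 and Id3 do not reach, gave 0 higher. The split of all genes moved with the scaling: 2712 higher and 2688 lower by TMM, 3261 and 1710 by upper-quartile factors, and 4537 and 850 by total counts alone, with medians of -0.10, 0.05 and 0.27. The other Kupffer cell genes lower came to 2 with at least 10 counts. Regulators lower came to 2 when an FDR of 0.05 was the sole limit, where Folr2 was also called. Niche genes lower came to 2, 3 and 1 with total counts alone, at least 10 counts and a log2 limit of 1, and niche genes higher to 2 at that limit. Leaving out each library gave 4 to 5 lower and 2 higher, and 9 to 10 lower per macrophage RNA, where Id3 crossed the fold limit without control 1, 2, 3, 5, 6, 8, 11 or 12 or MCD 5, 6, 7 or 8. The change of Cd5l ranged from -0.062 to 0.11 and that of C6 from -0.054 to 0.33 in these fits, changing sign in 8 and 6 of 24. Id3 per macrophage RNA was 0.076 with Csf1r alone. Same-numbered libraries did not deviate together in every pair (r over 0.1 in 8 of 12, from -0.28 to 0.35; median 0.233, against -0.059 for other pairs; 3 of 24 libraries correlated best with their own number), so the numbers were not taken as pairs. Apart from numbers 2 and 8, both libraries of a number lay on the same side of a sex-linked score of 0, so a block by number overlaps with the score. With a replicate block 3 of the 10 genes were lower, Marco (-1.07, FDR = 0.0239) and Vsig4 (-0.64, FDR = 0.0151) were not called, and C6 came to 0.61 (FDR = 0.166) and, per macrophage RNA, to -0.74 (FDR = 0.0685), no longer called. Relations past an adjusted p of 0.05 rose from 8 to 10 with total counts alone and fell to 5 without the 2 farthest libraries, and to 4 and 3 within the 6 libraries below and above a score of 0, where fewer libraries enter. Signs changed for Marco in control (-0.024) and MCD (-0.0093), Timd4 in MCD (-0.054) and Adgre1 in MCD (0.49) without the 2 farthest libraries, and in control for C6 (-0.53 over both sides, 0.050 below 0, 0.39 above 0), Marco (-0.23 above 0) and Cd163 (-0.12 above 0). Apart from these limits, the causes of the changes were not tested.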
